A study of Homo sapiens with 6 samples.

Results

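The genes described here are 8 Toll-like receptor genes (TLR1, TLR2, TLR4, TLR5, TLR6, TLR7, TLR8 and TLR9), the adaptor gene MYD88 and the kinase gene IRAK4. They were chosen by their symbols, with earlier results of these data known. Counts of members or of other pathway genes set beside all tested genes are therefore a description only. All 10 members have a row among the 55765 genes of the count table. The cells were OCI-AML2, a human line derived from acute myeloid leukaemia. The compared groups were 3 libraries of cells given 100 nM MRT199665 for 48 h and 3 libraries of cells given vehicle for the same time. MRT199665 is named in the labels as a MARK inhibitor, MARK being a family of kinases that phosphorylate microtubule-associated proteins, and the compound also acts on SIK kinases. All cells were cultured from single-cell clones, no genetic change is labelled, and the number of clones is not stated. The comparison asks which of these transcripts differed between inhibitor and vehicle.

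Toll-like receptors recognise conserved molecules of microbes. TLR1, TLR2, TLR4, TLR5 and TLR6 act at the cell surface, where TLR2 pairs with TLR1 or TLR6 to bind lipoproteins, TLR4 responds to lipopolysaccharide and TLR5 to flagellin. TLR7, TLR8 and TLR9 act in endosomes, where TLR7 and TLR8 recognise single-stranded RNA and TLR9 recognises DNA with unmethylated CpG motifs. All of these receptors can signal through the adaptor MYD88, which recruits IRAK4 and then IRAK1 or IRAK2 into the Myddosome, a complex that leads through TRAF6 to the NF-kB and interferon regulatory factors. Monocytes and macrophages carry many of these receptors.

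Total counts per library ranged from 5871097 (MRT199665 replicate 2) to 14308650 (MRT199665 replicate 3). Values are given as CPM, counts scaled to a common library total with TMM, a scaling that assumes most genes do not change. The libraries were made from the 3′ ends of messenger RNAs. The detection limit, taken as 3 counts, the most that a count of 0 allows, was 0.213 to 0.507 CPM depending on the library, for counting error only. MRT199665 replicate 2 lay at 48.4 on the first principal component and vehicle replicate 2 at -36.8, the ends of a component that did not separate the groups. Of the 9 fixed myeloid markers, CD33, MPO, SPI1, PTPRC, CSF3R, ITGAM and LYZ were tested. CEBPA and CD68 had a count of 0 in every library. The annotation used for counting is not stated, so a count of 0, here or below, need not mean that a transcript was absent.

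With MRT199665, TLR1, TLR4 and TLR9 had 1.79 to 1.99 times the vehicle level, and TLR8 was 2.23-fold higher at few counts. TLR2, TLR5 and TLR6, and the signalling genes MYD88 and IRAK4, had estimates closer to the vehicle level. In TLR1, TLR4, TLR8, TLR9 and MYD88 every MRT199665 library was above every vehicle library. That held for 11.4% of all tested genes, while 10.8% were lower without overlap. No contrast between the receptors and the signalling genes was tested. None of the 9 members that could be tested passed an adjusted p under 0.05 in either direction by edgeR, against 1.25% of all 13053 tested genes (0.850% higher and 0.398% lower). At an unadjusted p under 0.05, 4 of the 9 were higher (7.64% of all tested genes) and none lower (7.11%). DESeq2 and edgeR without a low-count filter each called TLR1 and TLR4 higher, with 1.56% and 1.32% of their tested genes called higher, and limma-voom called no member. The fit without a filter reflected the spread of single genes less. For the adaptor gene TICAM1, with vehicle replicate 1 far above the other libraries, its SE was 0.20, against 0.47 in the main fit. Calls of that fit are therefore given as a dependence on the setting and not as separate support. In RNA from bulk cultures, more cells that express a gene and more of its RNA per cell cannot be told apart. TLR7 had too few counts to be tested, and TLR8 passed the count filter (0.839 CPM in 3 libraries) through the MRT199665 libraries alone, so these counts are a description and not evidence for the group as a whole.

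Promoter sequences are shown for the 4 members whose windows held a searched motif (TLR4, TLR9, TLR6 and MYD88). The intervals of TLR6 and MYD88 include no change. Of the other receptors with higher values, TLR8 held no searched motif and TLR1 had no window. A link between these letters and the fold changes was not tested. They are RefSeq windows of build GRCh38.p14, from 250 bases before to 50 after the start, 5′ to 3′ on the gene's strand, with motif letters in capitals. The windows lie at chr9:117704153-117704452 (+) for TLR4, chr3:52225596-52225895 (-) for TLR9, chr4:38856768-38857067 (-) for TLR6 and chr3:38138411-38138710 (+) for MYD88.
TLR4: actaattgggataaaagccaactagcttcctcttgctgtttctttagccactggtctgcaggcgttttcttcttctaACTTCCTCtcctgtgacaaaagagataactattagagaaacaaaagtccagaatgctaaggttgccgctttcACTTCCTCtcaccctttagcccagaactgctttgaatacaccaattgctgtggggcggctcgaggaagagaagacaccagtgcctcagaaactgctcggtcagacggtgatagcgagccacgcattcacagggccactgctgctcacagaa
TLR9: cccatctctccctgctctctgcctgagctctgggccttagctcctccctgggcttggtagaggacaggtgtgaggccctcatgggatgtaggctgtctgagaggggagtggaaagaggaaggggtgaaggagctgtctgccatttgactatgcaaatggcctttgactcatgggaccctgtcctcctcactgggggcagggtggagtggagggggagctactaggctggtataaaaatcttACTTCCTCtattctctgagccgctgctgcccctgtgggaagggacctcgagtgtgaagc
TLR6: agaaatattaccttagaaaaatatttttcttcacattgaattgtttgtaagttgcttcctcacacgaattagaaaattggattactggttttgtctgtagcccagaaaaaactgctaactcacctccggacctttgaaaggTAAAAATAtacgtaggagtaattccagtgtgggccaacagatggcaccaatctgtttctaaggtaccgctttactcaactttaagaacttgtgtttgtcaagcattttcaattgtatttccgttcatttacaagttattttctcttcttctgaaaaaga
MYD88: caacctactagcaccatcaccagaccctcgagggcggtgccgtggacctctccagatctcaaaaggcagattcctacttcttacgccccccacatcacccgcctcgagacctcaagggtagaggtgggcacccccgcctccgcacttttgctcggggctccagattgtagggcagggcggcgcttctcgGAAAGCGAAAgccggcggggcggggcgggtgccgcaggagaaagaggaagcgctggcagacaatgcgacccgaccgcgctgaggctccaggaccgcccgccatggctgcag
Of the 10 members, 8 had such a window, TLR1 and TLR7 being the others. The letters searched on both strands were GAGGAAGT for PU.1, TATTTTTA for the MEF2 core, GGGA, any base and TTTCC for NF-kB, and GAAA, any 2 bases and GAAA for an interferon response element. The TLR4 window held the PU.1 letters 2 times on the reverse strand, starting at -173 and -101 from the start, and the TLR9 window held them at -9, while 2.59% of 35116 promoter windows held them at all. The TLR6 window held the MEF2 core letters at -109 (2.28% of windows) and the MYD88 window the interferon letters at -61 (3.57%). None of the 8 windows held the NF-kB letters, which 0.558% of all windows held, and the windows of TLR2, TLR5, TLR8 and IRAK4 held no searched motif. SPI1, which encodes PU.1, stood at 68.0 CPM in MRT199665 libraries and 65.7 CPM in vehicle libraries (log2 fold change 0.05 ± 0.14, SE).

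**Figure D1:**
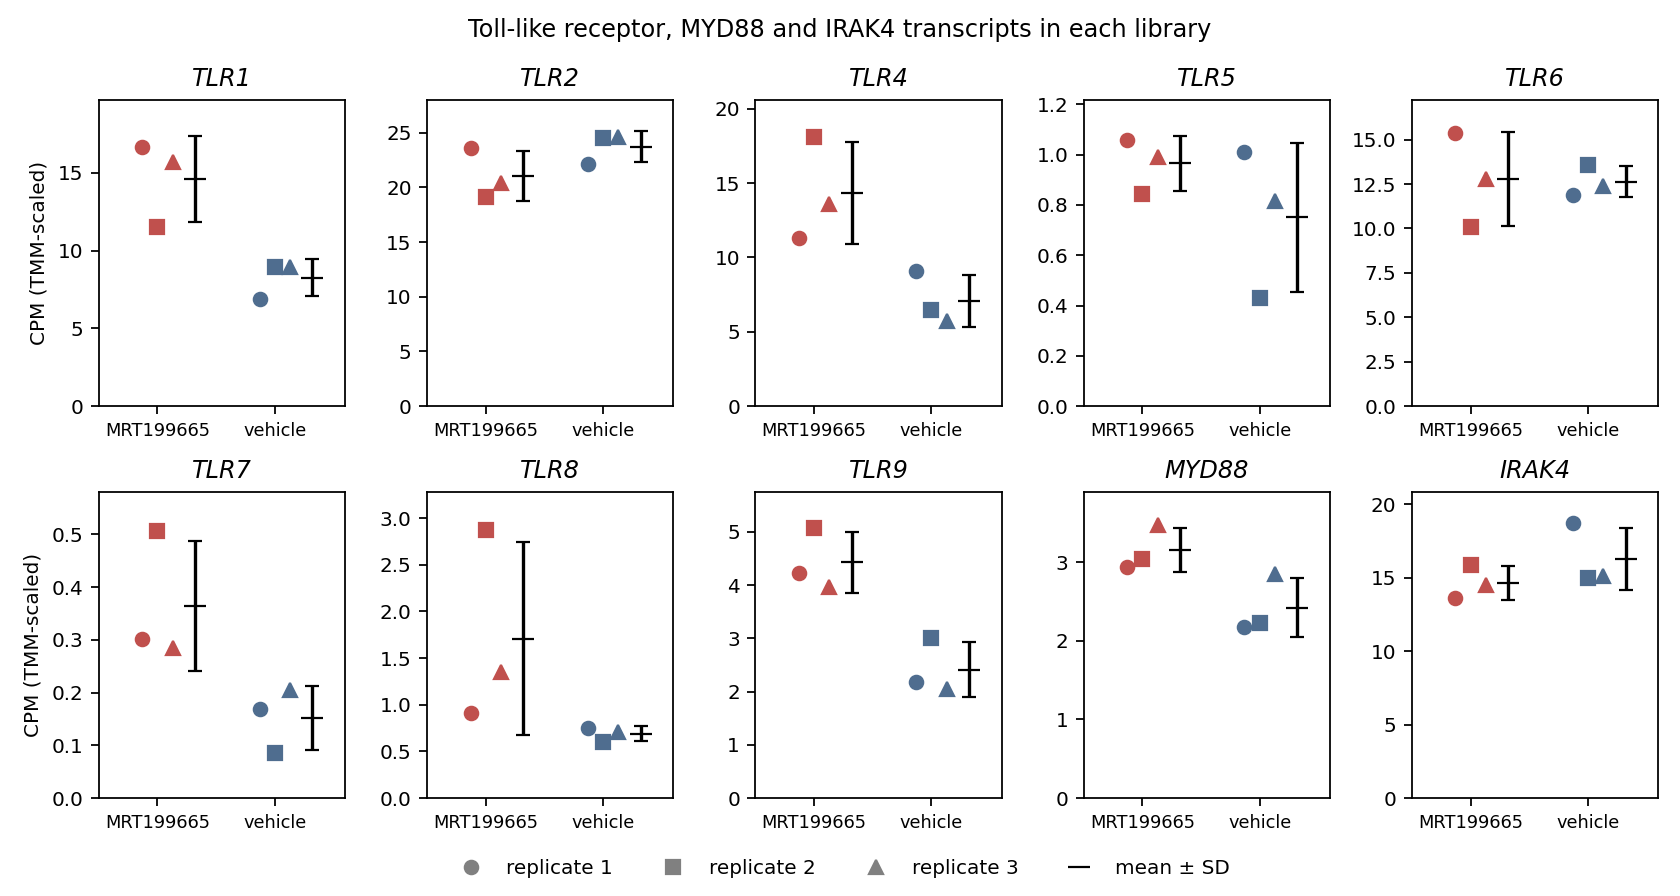
Level in CPM (vertical axis, linear from 0, a separate scale for each gene) of the 10 genes in each library, MRT199665 at left in red and vehicle at right in blue, with the mean and SD in black. For TLR1, TLR4, TLR7, TLR8, TLR9 and MYD88 the 3 MRT199665 libraries lie above the 3 vehicle libraries. For TLR2, TLR5, TLR6 and IRAK4 the groups overlap. Of all tested genes, 11.4% were higher without overlap. TLR7 had too few counts to be tested, and TLR8 passed the count filter through the MRT199665 libraries alone.

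Among the surface receptors, TLR1, the partner of TLR2 for triacylated lipoproteins, had 16.7, 11.5 and 15.7 CPM in MRT199665 replicates 1, 2 and 3, against 6.88, 8.92 and 8.96 CPM in vehicle replicates 1, 2 and 3. Every MRT199665 library was above every vehicle library, and MRT199665 replicate 2 was the lowest of its group. The means were 14.6 ± 2.75 CPM in MRT199665 libraries and 8.25 ± 1.19 CPM in vehicle libraries (SD, n = 3 each). The log2 fold change was 0.84 ± 0.19 (SE, edgeR adjusted p = 0.0874, 95% interval 0.41 to 1.27), and over 16 alternatives it lay between 0.73 and 1.13. The adjusted p ran from 0.00397 to 0.430, the latter by edgeR with the replicate number as a block. When 1 library was left out, the edgeR adjusted p of TLR1 was at most 0.325. DESeq2 gave an adjusted p of 0.0311 for TLR1, and edgeR without a low-count filter 0.00397.

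TLR4, the receptor for lipopolysaccharide, had 11.3, 18.1 and 13.6 CPM in MRT199665 replicates 1, 2 and 3, against 9.06, 6.43 and 5.70 CPM in vehicle replicates 1, 2 and 3. The groups did not overlap, and here MRT199665 replicate 2 was the highest of all libraries. The log2 fold change was 1.00 ± 0.23 (SE, edgeR adjusted p = 0.0977, 95% interval 0.46 to 1.53). It was 0.81 without MRT199665 replicate 2 and 0.74 without that library and vehicle replicate 2. Over the 16 alternatives the adjusted p ran from 0.000391 (no low-count filter) to 0.415 (replicate number as a block), with 0.0214 by DESeq2. When 1 library was left out, the edgeR adjusted p of TLR4 was at most 0.351. The accessory chains of TLR4 were hardly detected. CD14, which hands lipopolysaccharide to the receptor, had 13, 5 and 10 counts in the MRT199665 libraries and 8, 6 and 5 in the vehicle libraries. LY96, which encodes MD-2, the part of the complex that binds the lipid, had 6, 0 and 3 counts in the MRT199665 libraries and 1 in each vehicle library. Neither passed the count filter.

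TLR2, the common partner in lipoprotein recognition, had 23.6, 19.1 and 20.4 CPM in MRT199665 replicates 1, 2 and 3, against 22.1, 24.5 and 24.6 CPM in vehicle replicates 1, 2 and 3. The groups overlapped, and the log2 fold change was -0.17 ± 0.13 (SE, adjusted p = 0.624, 95% interval -0.47 to 0.14). TLR6, the partner of TLR2 for diacylated lipoproteins, had 15.4, 10.1 and 12.8 CPM in MRT199665 replicates 1, 2 and 3, against 11.9, 13.6 and 12.4 CPM in vehicle replicates 1, 2 and 3. The MRT199665 libraries lay on both sides of the vehicle libraries. The log2 fold change of TLR6 was 0.03 ± 0.17 (SE, adjusted p = 0.969, 95% interval -0.37 to 0.43), and its sign changed in 3 of 16 alternatives. TLR5, the flagellin receptor, had 14, 5 and 14 counts in the MRT199665 libraries and 12, 5 and 8 in the vehicle libraries, with overlapping groups and an interval of -0.51 to 1.28 around a log2 fold change of 0.39.

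**Figure D2:**
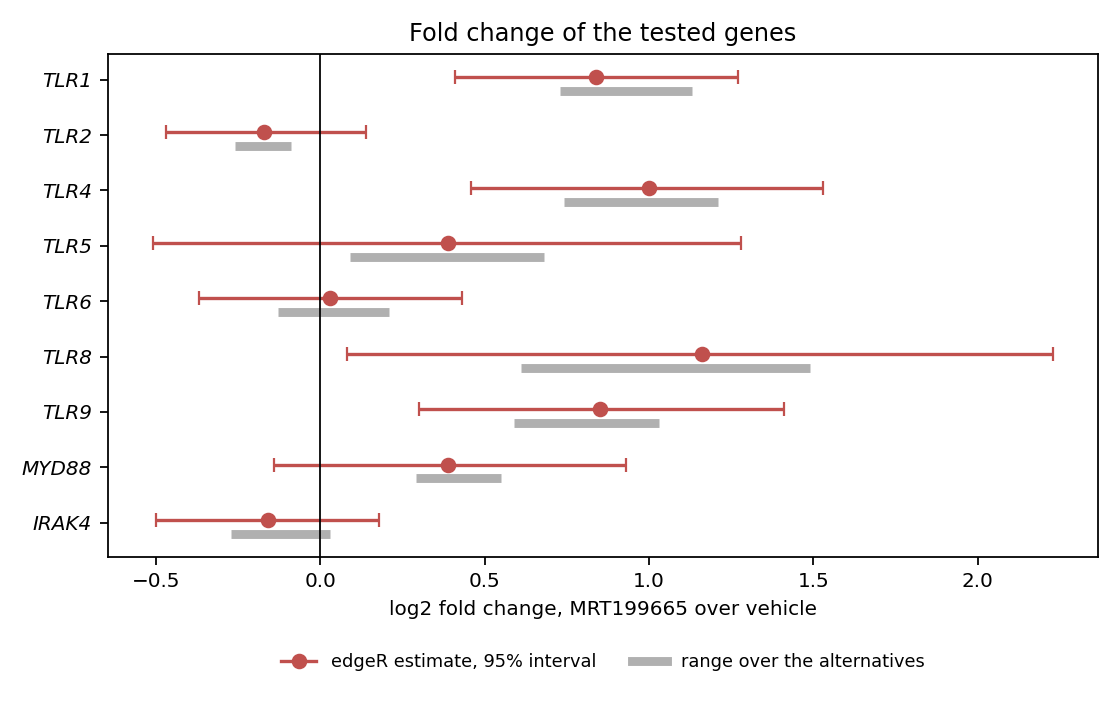
Log2 fold change of MRT199665 over vehicle (horizontal axis) for the 9 tested genes, as the edgeR estimate with its 95% interval in red and the lowest to highest value over the alternatives in grey. The intervals of TLR1, TLR4, TLR8 and TLR9 lie above 0, those of TLR2, TLR5, TLR6, MYD88 and IRAK4 include 0, and no gene passed an adjusted p under 0.05.

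TLR1 and TLR6 are neighbouring paralogs on the same strand, and they can be set against each other within a library, where scaling and depth cancel. This comparison of the partners of TLR2 was chosen after their values were seen. The ratio of TLR1 to TLR6 counts was 1.08, 1.13 and 1.23 in MRT199665 replicates 1, 2 and 3, against 0.577, 0.654 and 0.721 in vehicle replicates 1, 2 and 3. All MRT199665 libraries were above all vehicle libraries, a 1.77-fold difference (log2 0.82, between 0.74 and 0.90 when any 1 library was left out). The exact two-sided permutation p was 0.100, the smallest that 3 against 3 libraries can give, and 0.150 adjusted over the 3 ratios compared. The ratio of TLR1 to TLR2 was 1.99-fold higher, at 0.692 ± 0.0837 in MRT199665 libraries and 0.346 ± 0.0310 in vehicle libraries (SD, n = 3 each, exact permutation p = 0.100). The ratio of TLR6 to TLR2 overlapped between the groups, at 0.603 ± 0.0634 in MRT199665 libraries and 0.533 ± 0.0272 in vehicle libraries (SD, n = 3 each, exact permutation p = 0.300). The ratios compare the groups only and do not compare the levels of different genes.

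**Figure D3:**
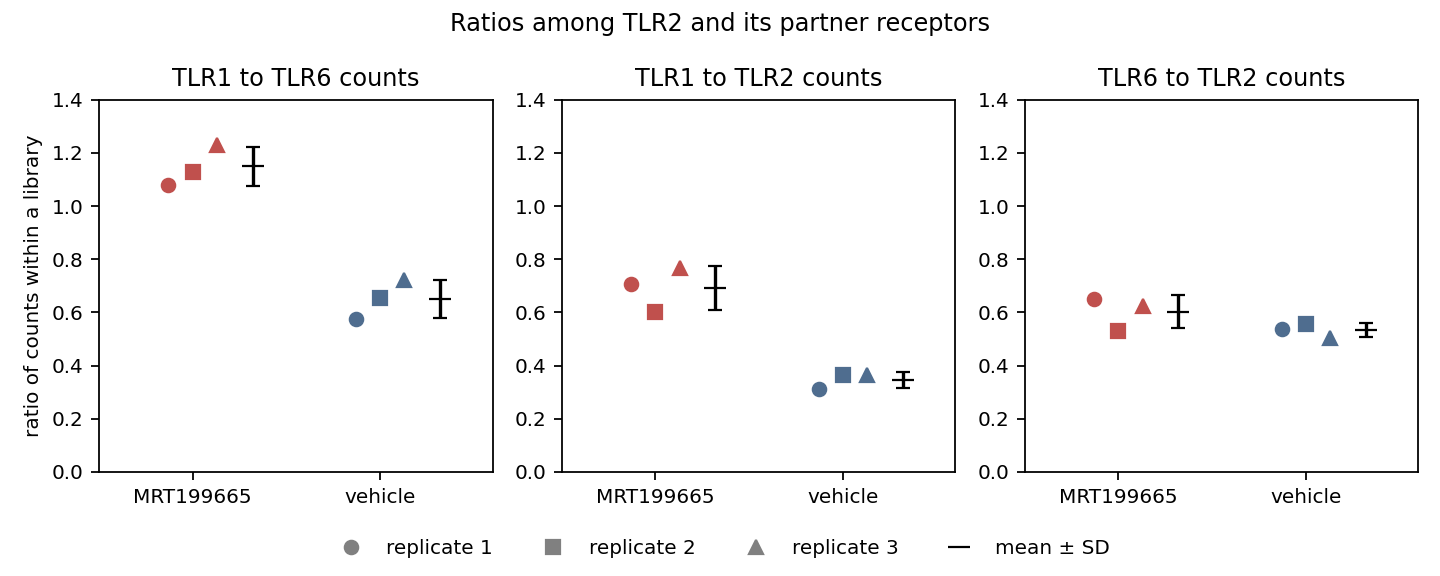
Ratio of counts within each library (vertical axis, linear from 0) for TLR1 to TLR6, TLR1 to TLR2 and TLR6 to TLR2, with MRT199665 at left in red, vehicle at right in blue, and the mean and SD in black. The ratio of TLR1 to TLR6 is 1.08 or more in each MRT199665 library and 0.721 or less in each vehicle library, while the ratios of TLR6 to TLR2 overlap.

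Reads of TLR1 and TLR6 could in part be split or dropped, since their genes overlap in GENCODE release 29. Of the 50-base words in the last 600 bases of the coding transcripts, 1.06% of those of TLR1 also occur in TLR6, and 0.477% of those of TLR6 in TLR1, while 0.934% of those of TLR2 occur in AC106865.1. For TLR4, TLR5, TLR7, TLR8, MYD88 and IRAK4 no such word at the 3′ end occurs in another gene. For TLR9 99.8% occur in AC097637.1, an overlapping gene on the same strand in that annotation. The count table has no row under that symbol, and whether the annotation used for counting held the gene under another symbol is not stated. TLR8-AS1, on the strand opposite to TLR8, had 1 count over all 6 libraries.

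Among the endosomal receptors, TLR9 had 4.23, 5.07 and 3.97 CPM in MRT199665 replicates 1, 2 and 3, against 2.18, 3.00 and 2.04 CPM in vehicle replicates 1, 2 and 3. The groups did not overlap. The means were 4.42 ± 0.576 CPM in MRT199665 libraries and 2.41 ± 0.522 CPM in vehicle libraries (SD, n = 3 each), and the log2 fold change was 0.85 ± 0.24 (SE, adjusted p = 0.151, 95% interval 0.30 to 1.41). Its values over the alternatives lay between 0.59 and 1.03, and none was called. B cells and plasmacytoid dendritic cells are known for TLR9, and the summed level of the 6 B cell markers was 6.80 to 9.47 CPM with MRT199665 and 6.96 to 9.35 CPM with vehicle, with MS4A1 at 0 in every library. The 5 markers of plasmacytoid dendritic cells summed to 24.8 to 32.3 CPM with MRT199665 and 29.1 to 30.8 CPM with vehicle, with IL3RA and GZMB at 0. Nearly all of this sum was TCF4, at 24.5 to 31.3 CPM with MRT199665 and 28.6 to 30.5 CPM with vehicle. CLEC4C and LILRA4 did not pass the count filter, so the sum says little about such cells. The 9 myeloid markers summed to 741 to 798 CPM with MRT199665 and 656 to 665 CPM with vehicle, without overlap. PTPRC alone made up 369 to 427 CPM of this sum with MRT199665 and 360 to 391 CPM with vehicle. Of the 7 tested myeloid markers, CD33, MPO, CSF3R, ITGAM and LYZ were higher at an unadjusted p under 0.05 (7.64% of all tested genes). Their groups did not overlap (11.4% of all tested genes, on the higher side). None of them passed an adjusted p under 0.05 by edgeR (0.105 to 0.272). SPI1 and PTPRC had log2 fold changes of 0.05 and 0.12, with groups that overlapped. LYZ, the lysozyme gene, had 3.55, 4.56 and 2.69 CPM in MRT199665 replicates 1, 2 and 3, against 1.01, 1.89 and 1.63 CPM in vehicle replicates 1, 2 and 3, a 2.33-fold difference that was called without a low-count filter. ITGAM, the integrin chain CD11b, had 2.06 ± 0.265 CPM in MRT199665 libraries and 1.02 ± 0.158 CPM in vehicle libraries (SD, n = 3 each), a 2.02-fold difference. The fold differences of LYZ and ITGAM, markers of mature myeloid cells, were as large as those of TLR1, TLR4 and TLR9, and their part in the receptor values was not tested.

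TLR8 had 12, 17 and 19 counts in MRT199665 replicates 1, 2 and 3, against 9, 7 and 7 counts in vehicle replicates 1, 2 and 3. In CPM these were 0.906, 2.87 and 1.35 with MRT199665, against 0.755, 0.601 and 0.712 with vehicle. MRT199665 replicate 2, the shallowest library, stood far above the other libraries, although the groups did not overlap. The log2 fold change was 1.16 ± 0.47 (SE, adjusted p = 0.303), and 0.71 without MRT199665 replicate 2 (unadjusted p = 0.114). TLR7 had 4, 3 and 4 counts in the MRT199665 libraries and 2, 1 and 2 in the vehicle libraries, at or near the limit of 3 counts, so no fold change is given. Of the Toll-like receptors that are not members, TLR10 had 4, 7 and 11 counts in the MRT199665 libraries and 1, 5 and 2 in the vehicle libraries, and TLR3 had 0 in each MRT199665 library and 1, 1 and 0 in the vehicle libraries.

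The estimates of the shared signalling genes lay nearer to the vehicle level. MYD88 had 2.94, 3.04 and 3.47 CPM in MRT199665 replicates 1, 2 and 3, against 2.18, 2.23 and 2.85 CPM in vehicle replicates 1, 2 and 3. The groups were separated by a narrow margin, between MRT199665 replicate 1 and vehicle replicate 3. The log2 fold change of MYD88 was 0.39 ± 0.24 (SE, adjusted p = 0.498, 95% interval -0.14 to 0.93). That interval holds the estimates of TLR1 (0.84) and TLR9 (0.85). IRAK4, the kinase that MYD88 recruits first, had 180, 94 and 205 counts in MRT199665 replicates 1, 2 and 3, against 223, 175 and 148 counts in vehicle replicates 1, 2 and 3. This came to 14.7 ± 1.16 CPM in MRT199665 libraries and 16.3 ± 2.12 CPM in vehicle libraries (SD, n = 3 each). The groups overlapped, and the log2 fold change was -0.16 ± 0.15 (SE, adjusted p = 0.686, 95% interval -0.50 to 0.18). Of the tested members 5 had groups that did not overlap and were higher with MRT199665, against 11.4% of all tested genes, and none was lower without overlap, against 10.8%. Without TLR8, which passed the filter through MRT199665 libraries alone, these were 4 of 8.

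The other pathway genes were described by role, and 79 of 118 listed genes could be tested. They had a median log2 fold change of 0.03, against 0.01 for all tested genes, with 3 called higher and 1 called lower (0.850% and 0.398% of all tested genes). At an unadjusted p under 0.05, 16 of the 79 were higher and 12 lower, against 7.64% and 7.11% of all tested genes. Of 10 co-receptors and accessory proteins 5 were tested, and LY86 rose. At an unadjusted p under 0.05, 3 of the 5 were higher and 1 lower, against 7.64% and 7.11% of all tested genes. The higher genes were LY86, CD180 and ITGAM. RIPK2, named after its values were seen, was lower (log2 fold change -0.49 ± 0.14, SE, edgeR adjusted p = 0.163). LY86 encodes MD-1, the partner of the Toll-like receptor homologue CD180. It had 166, 189 and 164 CPM in MRT199665 replicates 1, 2 and 3, against 93.7, 80.7 and 89.3 CPM in vehicle replicates 1, 2 and 3. The log2 fold change of LY86 was 0.97 ± 0.12 (SE, adjusted p = 0.00507), and its call ended without vehicle replicate 3 (adjusted p = 0.0665). CD180, named after its values were seen, had 10.9 ± 1.68 CPM in MRT199665 libraries and 5.47 ± 0.922 CPM in vehicle libraries (SD, n = 3 each), with an adjusted p of 0.0582, and was called by DESeq2 and without a low-count filter.

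Of 14 genes of receptor trafficking and processing 11 were tested and CTSB, a lysosomal protease, rose (log2 fold change 1.20 ± 0.14, SE, adjusted p = 0.00515, and 0.0656 without vehicle replicate 3). The median of this list was 0.30, with 10 of 11 values positive, against 50.9% of all tested genes. At an unadjusted p under 0.05, 5 of the 11 were higher and none lower, against 7.64% and 7.11% of all tested genes. UNC93B1, which carries nucleic acid receptors to endosomes, had 38.0 ± 12.0 CPM in MRT199665 libraries and 23.1 ± 4.91 CPM in vehicle libraries (SD, n = 3 each). MRT199665 replicate 1, at 26.0 CPM, was below vehicle replicate 1, at 27.6 CPM, so the groups overlapped (log2 fold change 0.71 ± 0.25, SE, adjusted p = 0.232, and 0.00651 without a low-count filter). CXorf21, now named TASL, links the transporter SLC15A4 to IRF5 downstream of the endosomal receptors, and was looked at after its values were seen. It had 239, 228 and 233 CPM in MRT199665 replicates 1, 2 and 3, against 185, 167 and 167 CPM in vehicle replicates 1, 2 and 3. The groups did not overlap, while the adjusted p was 0.105 (0.0460 by DESeq2).

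Of 10 genes of the IKK complex and the interferon regulatory factor arm 9 were tested and none was called by edgeR, DESeq2 or limma-voom, with a median log2 fold change of 0.33. At an unadjusted p under 0.05, 4 of the 9 were higher and 1 lower, against 7.64% and 7.11% of all tested genes. IRF7 had 10.4 ± 1.97 CPM in MRT199665 libraries and 5.78 ± 0.625 CPM in vehicle libraries (SD, n = 3 each, adjusted p = 0.0895, and 0.0174, a call, without a low-count filter). IRF5 had 13.8 ± 2.02 CPM in MRT199665 libraries and 9.24 ± 0.804 CPM in vehicle libraries (SD, n = 3 each, adjusted p = 0.140). Both factors act after MYD88 in the response to endosomal receptors, and the groups of neither overlapped.

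The kinases and ubiquitin ligases that follow MYD88 gave no call among 13 of 14 tested by edgeR, DESeq2 or limma-voom. The median log2 fold change was -0.04, and 1 gene of the 13 was lower at an unadjusted p under 0.05, against 7.11% of all tested genes. IRAK1 stood at 122 ± 6.89 CPM in MRT199665 libraries and 110 ± 6.79 CPM in vehicle libraries (SD, n = 3 each, adjusted p = 0.591). IRAK2 had 5, 1 and 7 counts in the MRT199665 libraries and 2, 3 and 7 in the vehicle libraries and was not tested. For TRAF6, the ubiquitin ligase of the pathway, the log2 fold change was -0.20 ± 0.33 (SE, adjusted p = 0.839). The genes of this list with the lowest p were TAB1, a partner of the kinase TAK1, at -0.40 ± 0.11 (SE, adjusted p = 0.151), and TAB3, a related partner, at 0.44 ± 0.24 (SE, adjusted p = 0.443).

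Of 5 other adaptors 2 were tested and none was called by edgeR, DESeq2 or limma-voom. Their median log2 fold change was -0.10, and 1 was higher at an unadjusted p under 0.05, against 7.64% of all tested genes. PIK3AP1, which links the receptors to phosphoinositide 3-kinase, had a log2 difference of 0.76 ± 0.18 (SE, adjusted p = 0.0934). Without a low-count filter, edgeR called PIK3AP1 higher (adjusted p = 0.0163) and TICAM1 lower (0.000136). TICAM1, the adaptor of TLR3 and of endosomal TLR4, had 5.96, 8.11 and 10.6 CPM in MRT199665 replicates 1, 2 and 3, against 29.8, 9.78 and 8.24 CPM in vehicle replicates 1, 2 and 3. Vehicle replicate 1 was far above the other libraries, and the log2 fold change of TICAM1, -0.96 ± 0.47 (SE, adjusted p = 0.393), was -0.13 without it. TIRAP, which bridges TLR2 and TLR4 to MYD88, had 8, 4 and 5 counts in the MRT199665 libraries and 4, 1 and 3 in the vehicle libraries and was not tested. Among 6 other receptors that use MYD88 only IL1RAP, the shared chain of interleukin 1 receptors, was tested (log2 fold change 0.03 ± 0.15, SE, adjusted p = 0.962).

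Of 22 inhibitors of the pathway 17 were tested, with a median log2 fold change of -0.05. At an unadjusted p under 0.05, 3 of the 17 were higher (LILRB4, CD300LF and TOLLIP) and 2 lower (TNFAIP3 and NLRC5), against 7.64% and 7.11% of all tested genes. LILRB4, an inhibitory leukocyte receptor that belongs to a family of close copies, rose (77.5 ± 4.39 CPM in MRT199665 libraries and 43.8 ± 0.587 CPM in vehicle libraries, SD, n = 3 each, adjusted p = 0.00775). Leaving out vehicle replicate 3 (adjusted p = 0.0916) or MRT199665 replicate 3 (0.0521) ended the call of LILRB4. CD300LF, TNFAIP3, TOLLIP and NLRC5 are named here after their values were seen. CD300LF, an inhibitory receptor of myeloid cells, had an adjusted p of 0.0638 (log2 fold change 0.67) and was called by DESeq2 and without a low-count filter. TNFAIP3, which encodes the ubiquitin-editing enzyme A20, had 54.5, 35.3 and 38.6 CPM in MRT199665 replicates 1, 2 and 3, against 54.9, 73.4 and 75.1 CPM in vehicle replicates 1, 2 and 3. Its adjusted p was 0.160 (log2 fold change -0.66), and it was called lower without a low-count filter. TOLLIP and NLRC5 had log2 fold changes of 0.39 and -0.40, with adjusted p of 0.149 and 0.239. IRAK3, a pseudokinase that restrains the Myddosome, stood at 66.0 ± 3.59 CPM in MRT199665 libraries and 69.2 ± 5.65 CPM in vehicle libraries (SD, n = 3 each, adjusted p = 0.841).

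Of 35 NF-kB factors and inflammatory target genes 21 were tested. Their median log2 fold change was -0.08, with 7 lower and none higher at an unadjusted p under 0.05, against 7.11% lower and 7.64% higher over all tested genes. CCL5, a chemokine, fell (105 ± 1.44 CPM in MRT199665 libraries and 177 ± 24.4 CPM in vehicle libraries, SD, n = 3 each, adjusted p = 0.0288). The call of CCL5 held without vehicle replicate 1 and ended without each of the other 5 libraries (highest adjusted p = 0.187, without vehicle replicate 3). The other 6 genes, named after their values were seen, were TNF, IL8, CCL3, IL23A, RELB and NFKBIZ, with adjusted p between 0.0715 and 0.337. DESeq2 called TNF, IL8, IL23A and RELB lower as well (1.19% of all genes it tested were called lower), while edgeR on unfiltered genes called these and CCL3 lower (0.960%). TNF, the cytokine, had 36.4, 40.6 and 32.4 CPM in MRT199665 replicates 1, 2 and 3, against 41.9, 83.3 and 63.2 CPM in vehicle replicates 1, 2 and 3. IL8, the neutrophil chemokine now named CXCL8, had 6.57, 5.41 and 5.67 CPM in MRT199665 replicates 1, 2 and 3, against 11.0, 8.92 and 11.7 CPM in vehicle replicates 1, 2 and 3. In both genes each MRT199665 library was below each vehicle library.

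**Figure D4:**
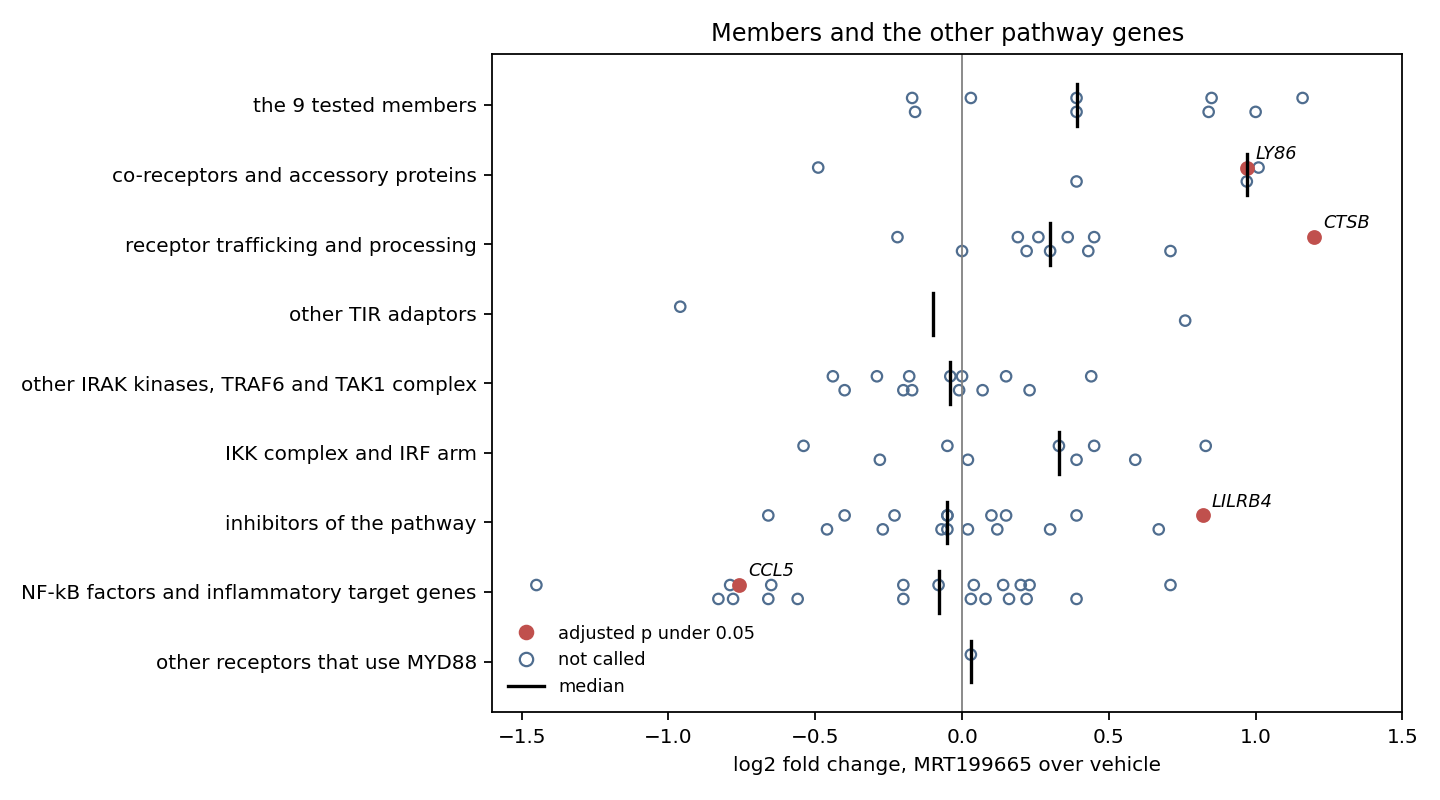
Log2 fold change of MRT199665 over vehicle (horizontal axis) of the tested members and of the tested genes of each role, with genes at an adjusted p under 0.05 filled in red and named, other genes as open circles and the median of each row as a black bar. LY86, CTSB and LILRB4 lie on the higher side and CCL5 on the lower side, and no member is called.

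The 3 genes outside these lists whose values were most like those of TLR1, the member with the lowest p, were SLCO3A1, ARSA and PDLIM2. Likeness was the root mean square difference of log2 CPM centred per gene over the 6 libraries, among 8899 genes with a mean of at least 5 CPM, and was 0.109, 0.111 and 0.114 for these genes. SLCO3A1, an organic anion transporter, had 43.6, 38.2 and 43.7 CPM in MRT199665 replicates 1, 2 and 3, against 20.6, 25.2 and 27.7 CPM in vehicle replicates 1, 2 and 3. It rose at the threshold (adjusted p = 0.0454), a call that ended without any 1 of the 6 libraries (highest adjusted p = 0.225, without MRT199665 replicate 3). ARSA, a lysosomal sulfatase, and PDLIM2, a PDZ and LIM domain protein, had adjusted p of 0.151 and 0.145. All 3 genes were picked for following TLR1 over these libraries, so their higher values with MRT199665 are not separate support.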

How the data were processed

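Raw gene counts, deposited by the authors as whole numbers and not normalized, were available for 3 MRT199665 and 3 vehicle libraries. The submitters' processing notes name the build hg19 and the tools STAR 2.4, HTSeq 0.6.1 and DESeq2, but no annotation or strand setting. Per the labels' protocols a Lexogen 3′ kit was used. Whether the libraries of a group are separate cultures is not stated, and p-values then cover only their spread, which may be technical.

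The test was that of edgeR 4.0.16 under R 4.3.3 (quasi-likelihood, TMM, group as the only term, two-sided, Benjamini-Hochberg) after filterByExpr (minimum count 10, minimum total 15), and the script was tested on simulated data. SE is the log2 fold change divided by the square root of F. Alternatives used other scalings and filters, DESeq2 1.42.0, limma-voom (limma 3.58.1), the replicate block, thinned counts and fewer libraries. No library was a copy of another (chi-square over its degrees of freedom at least 8.59 within groups).

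The members and lists were chosen with earlier results of these data known. Named genes were the members, 10 fixed pathway genes, and of each list up to 4 called genes, otherwise the 2 with the lowest p. Marker lists of T and NK cells (73.4 to 81.7 CPM with MRT199665, 79.5 to 84.6 CPM with vehicle) and of erythroid and megakaryocytic cells (2.27 to 5.07 CPM with MRT199665, 1.59 to 3.09 CPM with vehicle) gave no call by edgeR, DESeq2 or limma-voom. In each list 1 of 2 tested genes was higher at an unadjusted p under 0.05, against 7.64% of all tested genes. Without a low-count filter edgeR called ITGA2B. RefSeq promoters and GENCODE release 29 served for sequences and overlaps only, with no coordinates used on the counts.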

Additional observations from a re-analysis of the deposited data

How the results depend on the processing

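Over all genes, 111 were called higher and 52 lower. Without a low-count filter these were 373 and 271, with DESeq2 197 and 150, with the replicate block 7 and 5, and with counts thinned to the shallowest library 64 and 28. Leaving out 1 library gave 29 to 78 higher and 20 to 55 lower. Members called higher were 2 by DESeq2 and 2 without a low-count filter (TLR1 and TLR4 in each) and 0 in every other alternative, leaving out 1 library included, and members called lower were 0 in all. Of 140 member values under alternatives 136 kept their sign. With thinned counts TLR6 turned to -0.12 and IRAK4 to 0.03. When 1 library was left out, TLR6 ran from -0.13 (without MRT199665 replicate 1) to 0.15 (without MRT199665 replicate 2) and was -0.01 without vehicle replicate 1. TRAF6 ran from -0.38 to 0.05 (without vehicle replicate 3) and was 0.04 without MRT199665 replicate 2. IL1RAP ran from -0.06 (without MRT199665 replicate 2) to 0.10, with -0.01 and -0.02 without vehicle replicates 1 and 2, and was -0.10 without both ends of the first component. The cause was not tested.

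Same-numbered libraries did not deviate from their group means together (correlations across genes of -0.547, -0.467 and 0.0182), and no library correlated best with its own number. The cross-numbered pairs with the highest correlations were MRT199665 replicate 1 with vehicle replicate 2 (0.53) and MRT199665 replicate 2 with vehicle replicate 1 (0.482). The numbers were therefore not taken to pair the libraries, and whether any libraries share a day or batch is not stated. Under the replicate block the log2 fold changes were 0.82 for TLR1, 1.01 for TLR4 and 0.89 for TLR9, with adjusted p of 0.430, 0.415 and 0.446, and LY86, CTSB, LILRB4, CCL5 and SLCO3A1 were not called (adjusted p = 0.0762 to 0.312). TLR5 and TLR8 had no value with the filter of 1 CPM in 3 libraries or with thinned counts. The ratios among TLR2 and its partners, and the alternatives for genes that are not members, were added after seeing the data. At this depth, changes of TLR5, TLR7, TLR8, MYD88 and other genes of a few CPM are measured with wide intervals.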
